A study of Mus musculus with 8 samples.

Results

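Tetraspanin RNA was examined in sorted mouse Paneth cells through Cd9 and 9 other genes of the family: Cd63, Cd82, Cd151, Tspan1, Tspan3, Tspan8, Tspan12, Tspan13 and Tspan15. The members were picked by name from the 53801 genes of the count table, and the pick was made with the genotype difference of Cd9 in these libraries already known. The genotype differences of the 10 genes are therefore described with their errors, with no p for a single member, and counts of members called are given only beside the share of all genes called. Another 21 tetraspanin genes of the table served for comparison of levels.

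The 8 libraries came from mice in which Cre-ERT2, driven by the Lgr5 locus together with EGFP, had been switched on by 1 mg tamoxifen on each of 3 days. All 8 carried the β-catenin gain of function (β-cat GOF, a deletion of exon 3 of the β-catenin gene that stabilizes the protein). Beside it, 4 control mice were Mll1+/- (1 floxed allele) and 4 knockout mice were Mll1-/- (both alleles floxed). Mll1, encoded by Kmt2a, is a histone H3 lysine 4 methyltransferase. Crypt cells of the small intestine were taken 10 d after induction, from young mice of both sexes, and Paneth cells were sorted on EpCAM and CD24 with CD45 and dead-cell staining. The Lgr5 driver recombines in a mosaic pattern, and a Paneth cell carries the deletions only if it descended from a recombined stem cell or recombined itself. The study stained crypts for Mll1 protein at the time of sorting and reports its loss from all crypt cells, long-lived Paneth cells included. Those stainings are not analysed here. One methods passage on the sorting names littermates without β-cat GOF, whereas the labels give β-cat GOF for both groups, and the labels were followed. The study describes its replicates as separate mice. The labels of control 4 and knockout 4 bear the same animal number with different genotypes, which a single animal cannot have, and that number was not used.

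Tetraspanins are small membrane proteins that cross the membrane several times and gather integrins, immunoglobulin-type adhesion proteins, proteases and receptors into microdomains. Several travel through endosomes, and Cd9, Cd63 and Cd81 are standard markers of exosomes. In the intestine, members of the family are found on epithelial cells, Tspan8 among them.

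Libraries held 13557350 to 14380240 counts in controls and 13037832 to 13554171 in knockouts, and 22623 to 26074 and 19662 to 25198 genes had a count. Values are normalized CPM (counts scaled to library size and by TMM factors). Knockout 3 stood apart: its TMM factor was 0.632, against 1.22 to 1.34 in the other knockouts, it had the fewest genes with a count, and its Paneth marker sum was 795628 CPM, against at most 566528 in any control. It also held both 1037 counts of Xist and 148 of 4 Y-linked genes, whereas the other libraries with Xist had 6 to 22 Y-linked counts and those with at most 6 counts of Xist had 881 to 1375. Whether this library mixes material was not tested, and the values that turn on it are given with and without it. Both groups expressed Epcam (282 ± 12.7 CPM in controls and 268 ± 39.8 in knockouts, SD, n = 4 each) and Cd24a (1197 ± 128 and 998 ± 205), and Ptprc, which encodes CD45, was at 6.95 ± 4.47 and 5.81 ± 4.92. Kmt2a itself was at 32.2 ± 10.8 CPM in controls and 30.9 ± 5.54 in knockouts. Counts per whole gene do not show whether the floxed exons were lost, so they do not check the genotype. In bulk libraries, fewer cells of a type and less RNA per cell cannot be told apart.

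Mll1 has a zinc finger domain that binds unmethylated CpG. Stretches before the RefSeq starts of Cd9, Tspan8 and Tspan12 are shown because the RNA of these 3 members differed most between the genotypes. They are RefSeq sequences of GRCm38.p6, written 5′ to 3′ on the strand of the gene and kept to bases outside the exons of the counted gene, with each CpG in capitals. RefSeq and the annotation used for counting place the starts differently: for Tspan8 the stretch lies inside the counted gene, after its first bases, and for Tspan12 it lies wholly before it. Cd9 at chr6:125494792-125495010 on the minus strand has 219 bases, Tspan8 at chr10:115817034-115817270 on the plus strand has 237 and Tspan12 at chr6:21852534-21852783 on the minus strand has 250.
Cd9: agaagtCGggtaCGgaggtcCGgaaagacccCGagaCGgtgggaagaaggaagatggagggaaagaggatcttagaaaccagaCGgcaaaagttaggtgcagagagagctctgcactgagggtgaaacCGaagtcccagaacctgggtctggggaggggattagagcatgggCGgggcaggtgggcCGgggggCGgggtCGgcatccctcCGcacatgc
Tspan8: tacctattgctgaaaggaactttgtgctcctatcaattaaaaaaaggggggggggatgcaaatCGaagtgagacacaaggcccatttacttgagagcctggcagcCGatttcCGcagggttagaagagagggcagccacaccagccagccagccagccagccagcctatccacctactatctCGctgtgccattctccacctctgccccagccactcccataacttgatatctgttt
Tspan12: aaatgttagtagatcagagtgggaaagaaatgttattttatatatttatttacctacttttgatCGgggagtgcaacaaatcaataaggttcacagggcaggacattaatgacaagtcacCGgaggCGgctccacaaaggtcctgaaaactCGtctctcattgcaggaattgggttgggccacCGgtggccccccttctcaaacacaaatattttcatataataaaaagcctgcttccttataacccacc
In these stretches Cd9 had 12 CpG, Tspan12 had 5 and Tspan8 had 4. Over the full 250 bases before the start, used to compare genes, Cd9 had 16 CpG, and 25.4% of 32851 such windows of all genes had at least as many. Tspan12 had 5 and Tspan8 had 4, below the median of 6 (quartiles 2 and 16). Among the other members, Tspan15 had 23, Tspan13 had 21, Tspan3 had 14, Cd63 had 6 and Tspan1 had 3, while the starts of Cd82 (3 to 14) and Cd151 (4 and 12) differed among themselves. The GC box GGGCGG, searched on both strands, was found in any window of 5 members and in 32.7% of all windows, and Cd9 had 2 copies. Cd82 and Cd151 have several windows each, so counts of members and shares of windows are not in the same unit. The letters TCAAAG, the core bound by Tcf/Lef factors, were found in the windows of Cd63 and Cd82 and in 13.8% of all windows. The relation of these features to the genotype difference was not tested.

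All 10 members passed the filter on low counts, and every member had at least 10 counts in every library. Per kilobase of exon, which allows genes to be set side by side, Tspan8, Tspan1 and Tspan13 had the highest levels of the family in controls, at geometric means of 84.2 (range 71.6 to 101), 64.4 (40.3 to 80.2) and 52.3 CPM per kb (35 to 63.3). The ranges of neighbours in this order overlapped, whereas those of Tspan8 and Tspan13 did not. Cd63 (23), Cd81 (22.7) and Cd9 (20.3) followed with overlapping ranges, then Tspan6 (13.4), Tspan3 (10.9) and Tspan12 (6.71), whose ranges also overlapped from neighbour to neighbour. Cd82, Cd151 and Tspan15 lay between 1.21 and 2.77 CPM per kb. In knockouts Tspan1 (65.8), Tspan13 (60.1) and Tspan8 (53.9) remained in the first 3 places, in an order that returned to that of the controls without knockout 3. By geometric mean Cd9 moved from place 6 to place 4, with or without knockout 3, and stood at 35.1 CPM per kb over all 4 knockouts. In single libraries its place was 7, 7, 5 and 4 in controls 1 to 4 and 4 in every knockout. Its range in knockouts (28.7 to 41.8) overlapped those of Cd63 (16.2 to 41.3) and Cd81 (16 to 30.6). When length was taken from the longest transcript in place of all exons, Cd9 was in place 5 in controls and place 4 in knockouts. The 10 members made up 82.6 to 88.5% of the summed tetraspanin level per kb of a library.

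**Figure D1:**
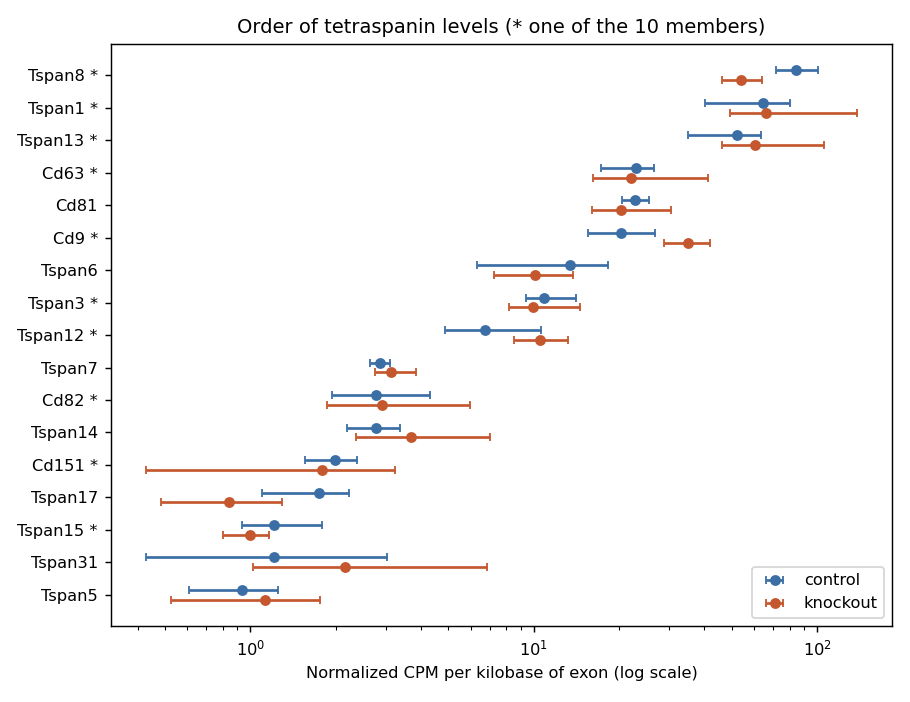
Level of 17 tetraspanins in CPM per kb of exon on a log axis, as geometric mean and range over 4 controls and 4 knockouts. Tspan8, Tspan1 and Tspan13 lie highest, and Cd9 has a geometric mean of 20.3 in controls and 35.1 in knockouts.

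Between the genotypes, 0 of the 10 members were called by the edgeR quasi-likelihood test, with an adjusted p up to 0.05 (Benjamini-Hochberg over 13439 genes) and a log2 difference of 0.5 or more either way. Of all tested genes 0.186% passed these limits, 0.156% higher and 0.0298% lower in knockouts. DESeq2 called 1 member (Tspan8) and 1.03% of all genes, limma-voom 0 members and 0.707%, and edgeR with no filter on low counts 1 member (Cd9) and 0.783%. At an unadjusted p under 0.05 there were 3 of 10 members (2 higher and 1 lower in knockouts), against 6.88% of all genes (4.35% higher and 2.53% lower), and since the members were picked on this contrast nothing is read from these counts. Cd9 had all knockouts above all controls and Tspan8 had all knockouts below all controls. Of all genes, 4.52% did not overlap between groups (2.59% higher, 1.93% lower). The median log2 fold change over the 10 was 0.12, beside 0.01 over all tested genes, with 7 values above 0 and 3 below, where 50.9% of all genes were above 0.

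Cd9, which binds integrins and the immunoglobulin proteins Igsf8 and Ptgfrn and is needed on the egg for fusion with sperm, is encoded at chr6:125460266-125494791 on the minus strand (mm10, as for all genes below). Its RNA was at 31.8, 34.6, 49 and 54.7 CPM in controls 1 to 4 and at 67.1, 58.7, 85.5 and 78.9 CPM in knockouts 1 to 4. All knockouts lay above the highest control. The means were 42.5 ± 11.1 and 72.5 ± 12 CPM (SD, n = 4 in either group), and the log2 fold change was 0.77 (SE 0.21, 95% interval 0.31 to 1.24) or 1.71-fold. These values rest on 436 to 1300 counts per library. On CPM of total counts, with no TMM factor, the groups were also apart, at 31.6 to 48.2 in controls and 54.1 to 95.9 in knockouts. That scaling, chosen after the data were seen, placed the median gene at a log2 fold change of 0.25. The library numbers in the labels fall into 2 sets of consecutive numbers, with controls 1 and 2 and knockouts 1 and 2 in the first. The ratio of knockout to control means was 1.9 in that set and 1.59 in the other. In the first set controls 1 and 2 had 2697 and 1188 counts of Xist, with 14 and 22 Y-linked counts. Knockouts 1 and 2 had 3 and 6 counts of Xist, with 1243 and 1375 Y-linked counts. Genotype and sex thus cannot be told apart in that set, for Cd9 or any other member. In the other set control 3 had 1 count of Xist, and control 4 and knockout 4 had 1055 and 1899. Without knockout 3 the log2 fold change of Cd9 was 0.68. Of the exon bases of Cd9, 10.7% overlap the antisense gene Gm26728, which had at most 10 counts in a library. The setting of strand in the counting is not given in the sources used here.

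Tspan8, a tetraspanin of gastrointestinal epithelium that also accumulates in digestive tumours, is encoded at chr10:115816832-115849893 on the plus strand. It was at 172, 149, 135 and 122 CPM in controls 1 to 4 and at 109, 98.8, 78.6 and 83.9 CPM in knockouts 1 to 4. Every knockout lay below the lowest control. The means were 144 ± 21.4 and 92.4 ± 13.7 CPM, a log2 fold change of -0.64 (SE 0.18, 95% interval -1.03 to -0.26) or 0.64-fold. The ratio was 0.645 and 0.633 in the 2 library sets. On CPM of total counts the groups overlapped, with 107 to 197 in controls and 49.7 to 139 in knockouts, and the log2 fold change was -0.39. That scaling, chosen after the data were seen, placed the median gene at 0.25.

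Ratios inside a library do not change with the scaling, but they rest on the same values and are no separate support. Cd9 over Tspan8, per kb, was 0.154, 0.193, 0.303 and 0.373 in controls 1 to 4 and 0.515, 0.495, 0.906 and 0.783 in knockouts 1 to 4. That these groups did not overlap follows from Cd9 being higher and Tspan8 lower in every knockout. Cd9 made up 5.14 to 7.94% of the summed tetraspanin level in controls and 9.01 to 13.7% in knockouts, again without overlap, and Tspan8 made up 21.3 to 36% and 9.94 to 22.5%, with overlap. Cd9 over Cd63 was 0.675 to 1.01 in controls and 1.77 to 1.95 in knockouts 1, 2 and 4, while knockout 3 was at 1.01, as high as the highest control.

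**Figure D2:**
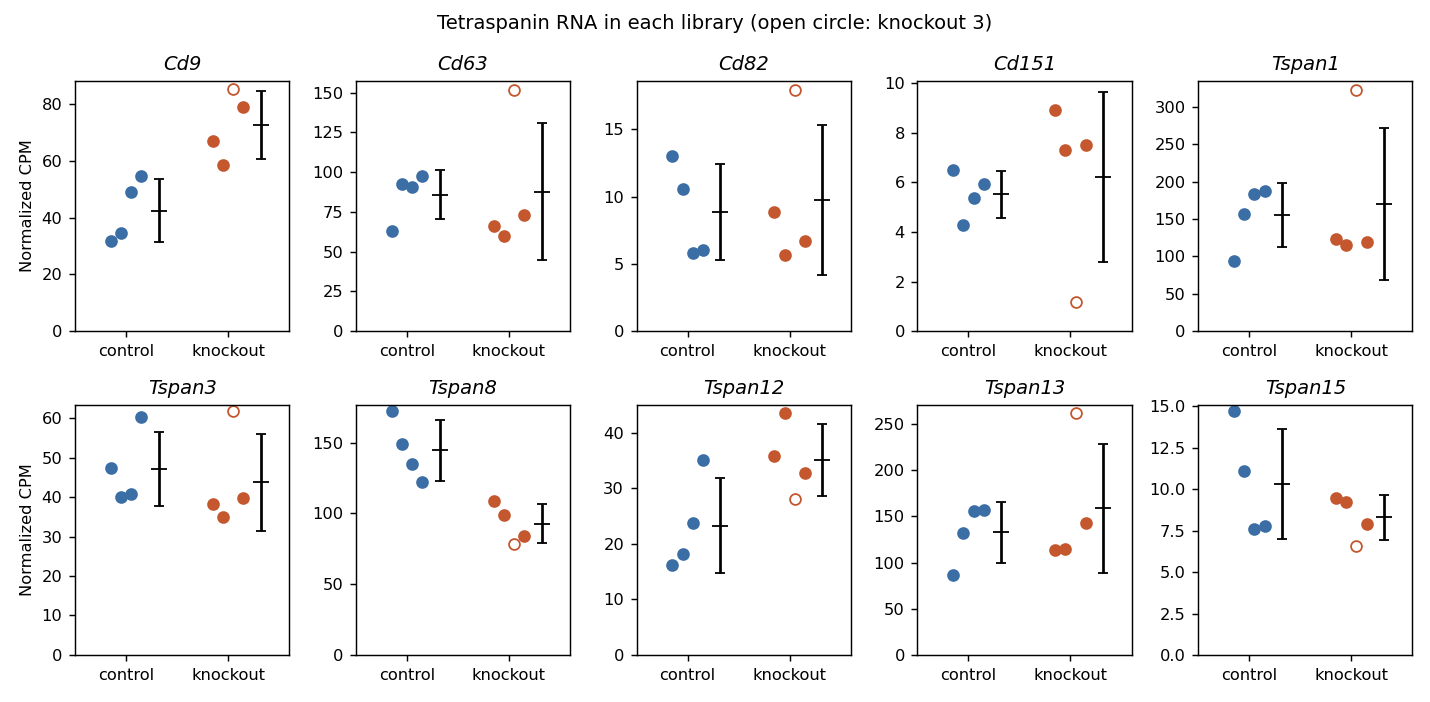
Normalized CPM of each of the 10 members in 4 controls and 4 knockouts, one panel per gene with its own axis from 0; points are libraries, the marks beside them show mean and SD, and the open circle is knockout 3. Cd9 (31.8 to 54.7 against 58.7 to 85.5 CPM) and Tspan8 (122 to 172 against 78.6 to 109 CPM) do not overlap between groups, and knockout 3 is the highest library for Cd9, Cd63, Cd82, Tspan1, Tspan3 and Tspan13.

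Tspan12, which assists the receptor Fzd4 in signalling by Norrin to β-catenin in retinal vessels, had the next largest log2 fold change in size. It was at 16.2, 18.1, 23.7 and 35.1 CPM in controls 1 to 4 and at 35.8, 43.6, 28.1 and 32.8 CPM in knockouts 1 to 4. Control 4 lay within the range of the knockouts, so the groups overlapped. The means were 23.3 ± 8.52 and 35.1 ± 6.51 CPM, a log2 fold change of 0.59 (SE 0.25, 95% interval 0.05 to 1.14). The ratio was 2.32 in the first library set and 1.04 in the other.

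Tspan15 belongs to the tetraspanins that escort the protease Adam10 to the cell surface. It was at 7.63 to 14.7 CPM in controls and 6.58 to 9.5 CPM in knockouts, with a log2 fold change of -0.31 (SE 0.26) and overlapping groups. Cd151, a partner of laminin-binding integrins, was at 6.52, 4.28, 5.38 and 5.92 CPM in controls and at 8.91, 7.29, 1.17 and 7.52 CPM in knockouts. Knockout 3, with 10 counts, lay below every control and the other 3 knockouts lay above every control. The log2 fold change was 0.19 (SE 0.46) with it and 0.51 without it. Cd82, known as a suppressor of metastasis, was at 5.83 to 13 CPM in controls and 5.63 to 17.9 CPM in knockouts, with a log2 fold change of 0.12 (SE 0.39).

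Cd63, a protein of late endosomes and lysosomes, was at 63.3, 92.3, 90.5 and 97.4 CPM in controls and at 66.3, 59.8, 152 and 73 CPM in knockouts. Knockout 3 was far above the other 3 knockouts, and the log2 fold change went from 0.03 (SE 0.29) to -0.37 without it. On CPM of total counts Cd63 spanned only 72.7 to 96.1 over all 8 libraries. Tspan1 was at 93.8, 157, 184 and 187 CPM in controls and at 124, 115, 322 and 119.6 CPM in knockouts, with a log2 fold change of 0.13 (SE 0.35), and -0.38 without knockout 3. Tspan13 was at 86.7 to 157 CPM in controls and 114 to 262 CPM in knockouts, with a log2 fold change of 0.25 (SE 0.29), and -0.11 without knockout 3. On CPM of total counts the knockouts lay above the controls for Tspan13, at 146 to 173 against 99.6 to 138. The median gene was at a log2 fold change of 0.25 on that scaling. Tspan3 was at 40.1 to 60.3 CPM in controls and 35 to 61.9 CPM in knockouts, with a log2 fold change of -0.11 (SE 0.22). The direction of Cd63, Cd82, Tspan1 and Tspan13 thus turned without knockout 3. That of Tspan3 turned without control 4 (0.03) and with total counts (0.04), and that of Cd151 without knockout 1 (-0.02). Without knockout 3, Cd9 and Cd151 were higher and Tspan8 and Tspan3 lower in knockouts with no overlap, beside 1480 of the 13439 genes (11%) that did not overlap in that comparison of 4 with 3, and the median over the 10 members was -0.27.

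**Figure D3:**
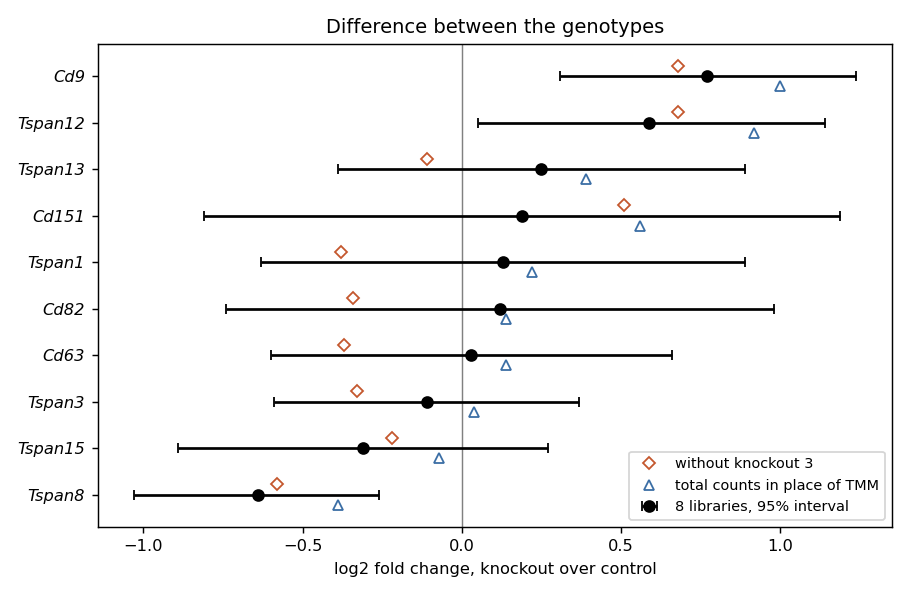
Log2 fold change of knockouts over controls for the 10 members with 95% interval (filled circles), with the values obtained without knockout 3 (diamonds) and with total counts in place of TMM (triangles) beside them. Cd9 at 0.77, Tspan8 at -0.64 and Tspan12 at 0.59 are the largest in size, and Cd63, Cd82, Tspan1 and Tspan13 change sign without knockout 3.

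Relative to the mean of the other 3 knockouts, knockout 3 was at 2.69 for Tspan1, 2.53 for Cd82, 2.29 for Cd63, 2.12 for Tspan13 and 1.64 for Tspan3, but at 1.25 for Cd9, 0.81 for Tspan8, 0.751 for Tspan12 and 0.149 for Cd151. The members thus did not shift by a common factor in this library. Likeness to the pattern of Cd9 over the 8 libraries was taken as the root mean square difference of centred log2 of CPM plus 1. The nearest genes were Psmg1 (0.0904), Npat (0.111), D630039A03Rik (0.118), Tubb4a (0.133) and Atp10a (0.158), against a median of 0.589 over all tested genes. Tubb4a (0.476 to 2.11 CPM) and Atp10a (0.251 to 2.35 CPM) were at low levels, where adding 1 shrinks differences. Their log2 fold changes were 1.37 and 0.99. The nearest members were Tspan12 at 0.33 and Tspan13 at 0.395.

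**Figure D4:**
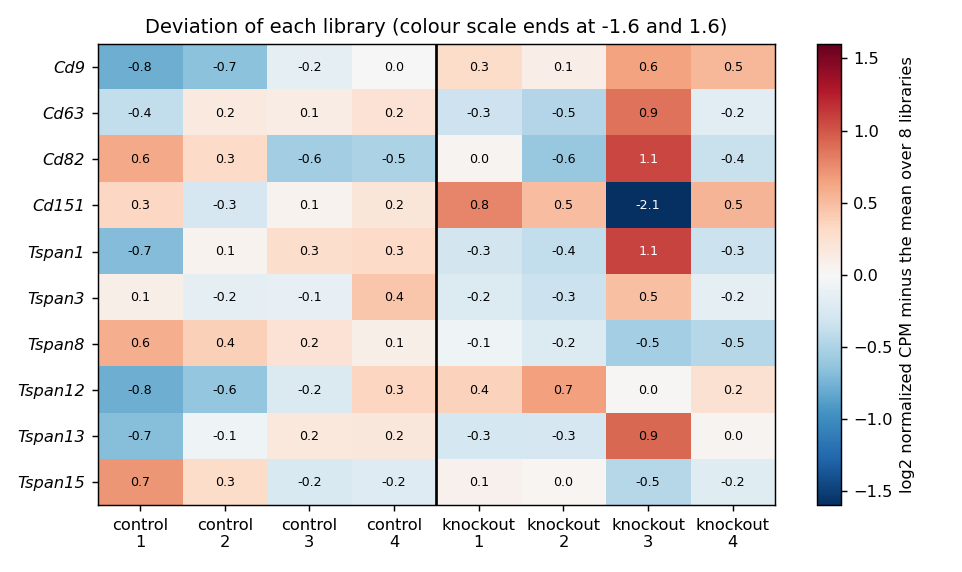
Deviation of each library from the mean of all 8, in log2 units, for the 10 members (rows) in controls and knockouts (columns), with a colour scale that ends at -1.6 and 1.6. Cd9 is at or below its mean in the controls and above it in the knockouts, Tspan8 is above its mean in the controls and below it in the knockouts, and Cd151 runs past the end of the scale in knockout 3.

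The other tetraspanins, the partners of the family at the membrane and the genes of its endosomal route were read as background from lists written with the earlier results known. Of the other tetraspanins, 8 passed the filter and edgeR, DESeq2 and limma-voom called 0, with 1 at an unadjusted p under 0.05 in edgeR (Tspan17) and with a median log2 fold change of 0.01. Those with the highest CPM, not set per length, were Cd81, Tspan6 (29.9 ± 11.5 and 21.4 ± 5.53 CPM) and Tspan7 (20.2 ± 1.51 and 22.3 ± 3.37 CPM). Cd81, which like Cd9 joins Igsf8 and Ptgfrn, was at 65.6 ± 6.03 CPM in controls and 60.4 ± 19.5 in knockouts. In none of these did the groups separate. Tspan17, another escort of Adam10, was at 2.99 ± 0.815 and 1.5 ± 0.617 CPM, a log2 fold change of -0.98 (SE 0.43, adjusted p = 0.68 by edgeR). Of 34 membrane partners 28 passed the filter. Of these edgeR called 0, limma-voom called 0 and DESeq2 called 1 (Met), edgeR with no filter called 2 (Met and Cldn1), and the median log2 fold change was 0.14. Beside Epcam, the adhesion proteins Cdh1 (95.8 ± 6.91 and 86.8 ± 14.4 CPM) and Bsg (82.4 ± 11.8 and 95.7 ± 37.1 CPM) had the highest CPM of this list, with overlapping groups. Met, the receptor of hepatocyte growth factor, was at 3.41 to 8.8 CPM in controls and 13.5 to 17.8 CPM in knockouts without overlap, a log2 fold change of 1.13 (SE 0.28) (adjusted p = 0.274 by edgeR). DESeq2 called Met (adjusted p = 0.0258), as did edgeR with no filter on low counts (adjusted p = 0.00999), and limma-voom did not (adjusted p = 0.0728). The integrin chain Itgav was at 5.46 ± 0.943 and 10.1 ± 2.39 CPM, also without overlap (log2 fold change 0.88, SE 0.26, adjusted p = 0.39 by edgeR). Of 31 endosome and exosome genes that passed the filter, edgeR called 0, DESeq2 and limma-voom each called 1 (Anxa2), and the median log2 fold change was 0. Anxa2, an annexin of membranes and vesicles, was at 15.2, 15.9, 16.2 and 14.8 CPM in controls and at 36.6, 39, 21.1 and 36.3 CPM in knockouts, a log2 fold change of 1.10 (SE 0.21, adjusted p = 0.0766 by edgeR). It passed a 10% false discovery rate, as did 0.283% of all genes, and its adjusted p was 0.000378 by DESeq2 and 0.00338 by limma-voom. The syndecan Sdc1 was at 4.87 ± 2 and 9.96 ± 3.62 CPM (log2 fold change 1.03, adjusted p = 0.513 by edgeR). The genes of this route with the highest CPM, Lamp2 at 143 ± 38.3 and 158 ± 18.5 CPM, Sdcbp at 109 ± 24.9 and 109 ± 26.1 CPM and Rab11a at 44.2 ± 7.44 and 49 ± 8.27 CPM, differed by less than the spread between libraries.

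The Paneth cell label was checked against its markers, which were abundant in both groups: Defa24, a defensin, was at 315381 ± 85627 and 283016 ± 154234 CPM, the lysozyme Lyz1 at 41007 ± 19030 and 35393 ± 24891 and Mmp7, which activates defensins, at 2624 ± 896 and 2465 ± 1378. The Paneth sum was 281478 to 566528 CPM in controls and 266454 to 795628 in knockouts (266454 to 348904 without knockout 3), and 7 of 18 markers had a positive log2 fold change. For no list of markers did the summed levels of all 8 libraries separate the genotypes, and edgeR called 0 markers. The goblet sum was 10243 to 22948 CPM in controls and 9252 to 24748 in knockouts (9252 to 12138 without knockout 3), with 9 of 14 positive and Spink4 at 9449 ± 2736 and 9265 ± 3899. The goblet markers with the smallest unadjusted p were both lower in knockouts without passing the test. Fcgbp was at 17.9 to 266 CPM in controls and 14.1 to 33.4 in knockouts (log2 fold change -2.24, SE 0.62, adjusted p = 0.361 by edgeR), and Zg16 at 1.51 to 303 and 0 to 9.36 CPM (-5.05, SE 2.02, adjusted p = 0.68 by edgeR), with overlap for both. Control 3 gave the highest value of both. Clca1 had the highest log2 fold change of the list (0.76, SE 1.36). It was at 0.317 to 71.2 CPM in controls and 3.21 to 62.4 in knockouts.

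Enteroendocrine markers were lower in knockouts in 12 of 13 tested genes, with a median log2 fold change of -1.42. Their sum was 1090 to 2363 CPM in controls and 81.4 to 2691 in knockouts, where knockout 3 gave the highest value. Without it the knockouts reached 1012 and lay below every control. Neurod1, a transcription factor of these cells, was at 36.5 ± 16.2 and 7.53 ± 3.86 CPM without overlap (log2 fold change -2.27, SE 0.4, adjusted p = 0.0629 by edgeR), and it passed the 10% false discovery rate. Tph1, which makes serotonin, was at 7.08 to 22.4 CPM in controls and at most 3.15 in knockouts, with 0 counts in knockouts 2 and 3 (adjusted p = 0.316 by edgeR). The hormone gene Gip varied widely, at 669 ± 375 and 501 ± 792 CPM. All 10 tested tuft markers had a negative log2 fold change (median -0.85). Their sum was 301 to 855 and 156 to 551 CPM (163 to 551 without knockout 3), and Rgs13 was at 115 ± 24.6 and 41.3 ± 22.2 (adjusted p = 0.171 by edgeR).

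Stem cell markers went both ways, 4 of 10 positive. Tnfrsf19 was at 10.9 ± 2.45 and 27.9 ± 11.4 CPM (log2 fold change 1.36, adjusted p = 0.23 by edgeR) and Rnf43 at 10.8 ± 2.26 and 19.8 ± 3.82 (0.87, adjusted p = 0.272 by edgeR), the latter without overlap, while Slc12a2 was at 183 ± 59.4 and 102 ± 27.3 (-0.85, adjusted p = 0.468 by edgeR), also without overlap, and Olfm4 was at 874 ± 305 and 405 ± 241 (-1.11, adjusted p = 0.671 by edgeR). Their sum was 757 to 1586 and 317 to 1042 CPM, and 706 to 1042 without knockout 3. Enterocyte markers had a median log2 fold change of -0.57, with 2 of 10 positive. In edgeR 4 of 10 were lower at an unadjusted p under 0.05, beside 2.53% of all genes. At that limit 6 of 13 enteroendocrine, 2 of 10 tuft and 2 of 14 goblet markers were also lower. Of 10 stem markers 3 were lower and 3 higher, and 0 of 18 Paneth markers passed it. Fabp2 (35.8 ± 5.59 and 17 ± 7.62 CPM, adjusted p = 0.279 by edgeR) and Vil1 (75.5 ± 11.1 and 56.4 ± 3.11 CPM, adjusted p = 0.589 by edgeR) lay lower in every knockout than in any control. Fabp1, the marker with the highest CPM, was at 150.0 ± 85 and 90.7 ± 54.4. Their summed level had a range of 254 to 441 and 209 to 354 CPM, or 239 to 354 without knockout 3. Immune and stromal markers were at low levels: the immune sum was 6.46 to 15.7 and 3.03 to 16.2, with Trbc2, 1 of 16 markers, at 0 in all libraries, and the stromal sum was 4.5 to 7.21 and 5.11 to 7.52, mostly Pecam1. The part of these cell types in the values of Cd9, Tspan8 and Tspan12 was not tested.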

How the data were processed

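RNA of FACS-sorted Paneth cells was amplified by a Smart-seq2 protocol and sequenced in 4 control and 4 knockout libraries, grouped by the genotype in the labels. Reads were demultiplexed with bcl2fastq 2.19.1 per the submitters' processing notes, and the authors used GSNAP for alignment (mm10) and featureCounts 1.6.3 to count reads with a unique position in Ensembl 92 genes. The deposited values are raw counts per gene and library. PCR copies are counted separately, so intervals cover the spread between libraries and not the molecules behind a count, and the strand setting of the counting is not given in the sources used here. Spike-in rows were left out.

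From the counts, edgeR 4.0.16 in R 4.3.3 gave TMM factors, quasi-likelihood fits (robust) and log2 fold changes for the 13439 genes kept by filterByExpr (count minimum 10, total minimum 15). The standard error was taken as the log2 fold change divided by the square root of F. DESeq2 1.42.0 and limma 3.58.1 (voom with quality weights) were alternatives, with other scalings, filters, library sets, a Y-linked covariate and each library left out. The procedure was tested on simulated data. Between 2 libraries, chi-square over its degrees of freedom was at least 12.4, so no library was counted as a repeat.

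Members and gene lists were chosen with earlier results of these data known. Named genes were all 10 members, from the lists of other tetraspanins, membrane partners and endosome and exosome genes those called, the 3 with the highest mean CPM and the 2 with the smallest unadjusted p, the 5 genes most like Cd9, Kmt2a, the sort markers, Lyz1, Mmp7 and Defa24, and the marker of each other cell type with the highest mean CPM. Cldn1, Trbc2, Neurod1, Tph1, Fcgbp, Zg16, Clca1, Tnfrsf19, Rnf43, Slc12a2, Fabp2 and Vil1 were named after their values were seen. Promoter windows were read from RefSeq (GRCm38.p6), with matches for all 10 members.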

Additional observations from a re-analysis of the deposited data

Results flagged for a closer look

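In the groups of 4 knockouts, a single library stood far from the other 3 for 2 members. Cd63 was at 152 CPM in knockout 3 and at 59.8 to 73 in the others, so that the gap made up 0.856 of the whole range. Tspan1 was at 322 CPM in knockout 3 and at 115 to 124 in the others, a gap of 0.955 of the range. Of 20 groups compared, 2 were so marked, and chance marks about 1 in 20. On CPM of total counts, knockout 3 was at 96.1 for Cd63 and the other knockouts at 79.8 to 88.8, and at 203 for Tspan1 against 145 to 159.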

How the results depend on the processing

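Of the recomputed log2 fold changes of the members, 189 moved by less than the SD between libraries, and Tspan8 moved to -0.39 with total counts in place of TMM, a scaling chosen after the data were seen. Leaving out each library gave 0.66 to 0.91 for Cd9, -0.72 to -0.55 for Tspan8 and 0.46 to 0.86 for Tspan12, and these 3 and Tspan15 kept their sign throughout. The sign was opposite in 5 of 19 settings for Cd63 (range over libraries left out -0.37 to 0.17), 4 for Cd82 (-0.34 to 0.36), 3 for Tspan1 (-0.38 to 0.28), 2 each for Tspan13 (-0.11 to 0.39) and Tspan3 (-0.33 to 0.03) and 1 for Cd151 (-0.02 to 0.51). For Cd63, Cd82, Tspan1 and Tspan13 it turned without knockout 3. The number of all genes called, 25 in the edgeR test, was 290 with no filter, 13 with at least 10 counts in every library, 138 with DESeq2, 95 with limma-voom, 15 with total counts, 10 with the Y-linked covariate, 38 at 10% false discovery rate and 10 to 152 with each library left out, 152 without knockout 3 and 10 without control 3. Of the members, 1 was called with no filter (Cd9, log2 fold change 0.76) and 1 with DESeq2 (Tspan8, -0.64). Of the membrane partners, 2 were called with no filter (Met and Cldn1) and 1 with DESeq2 (Met). Of the endosome and exosome genes, 1 (Anxa2) was called with no filter, with DESeq2, with limma-voom and at 10% false discovery rate, and 0 to 1 with each library left out, the 1 being without knockout 3. The adjusted p of Anxa2 ranged from 0.000378 to 0.384 over the settings, and that of Met from 0.00999 to 0.561. Groups of 4 members and of 1480 genes did not overlap without knockout 3, against 2 and 608 with it, where fewer samples are compared. The rank of Cd9 in controls was 5 by the longest transcript. The cause of the other changes was not tested. No paired analysis was made because the labels give no replicate number, share an animal number between only 1 control and 1 knockout and do not say that neighbouring library numbers mark littermates. The study names littermates without giving the pairs. A fit with the library set as a block called 0 of 10 members, beside 24 of 13439 tested genes.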
